A study of Mus musculus with 6 samples.

Results

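Germinal centre B cells of wildtype and SFR KO mice were compared for 10 genes of transforming growth factor beta (TGF-beta) and bone morphogenetic protein (BMP) signalling. These were the receptor genes Tgfbr1, Tgfbr2, Bmpr1a and Bmpr2 and the SMAD genes Smad1, Smad2, Smad3, Smad4, Smad5 and Smad7. They were taken by symbol from a deposited table of 55421 genes, of which 24646 had a read, and all 10 were present. The family was chosen by a measured value, the higher level of Smad1 in the SFR KO libraries, so the difference of Smad1 is given as a description and not as a test. RNA came from spleens of immunised C57BL/6 mice that carry a green fluorescent protein (GFP) reporter. Both groups of 3 libraries, wildtype and SFR KO, share the reporter and the immunisation with NP(18)OVA in alum, and GFP+ cells were sorted on day 9. SFR KO mice lack a stretch of SLAM family receptor genes, Cd244, Ly9, Slamf7, Cd48, Slamf1, Cd84 and Slamf6. The labels restrict this deletion to no cell type, and no age is given for the mice. Whether the libraries of a group came from different mice is not stated, so the p-values reflect only how these libraries vary, and that variation may be technical.

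Ligands of this family bind a type II receptor, which phosphorylates a type I receptor, which in turn phosphorylates receptor SMADs. TGF-beta acts through Tgfbr2 and Tgfbr1 on Smad2 and Smad3, and BMPs act through receptors such as Bmpr2 and Bmpr1a on Smad1 and Smad5. Smad4 joins both branches as the common partner that carries the complex to target genes, and Smad7 is induced by the pathway and inhibits it. In B cells, TGF-beta is known for directing class switching to IgA and for restraining proliferation.

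The sequences shown are the 250 bases before the RefSeq start of 4 members, those whose wildtype and SFR KO values did not overlap. The Smad1 start lies 90 bases inside the annotated gene, so its window reaches into the gene. The Tgfbr2 start lies 3 bases before the annotated gene. RefSeq promoter entries (build GRCm38.p6) were matched for 7 of the 10 members. Smad2, Smad4 and Smad7 were not among them. Each window is read 5′ to 3′ on the strand of its gene. Capitals mark a match to the short SMAD box CAGAC or its reverse complement GTCTG, or to the GC-rich palindrome GGCGCC.
Smad1 (chr8:79399429-79399678, minus strand): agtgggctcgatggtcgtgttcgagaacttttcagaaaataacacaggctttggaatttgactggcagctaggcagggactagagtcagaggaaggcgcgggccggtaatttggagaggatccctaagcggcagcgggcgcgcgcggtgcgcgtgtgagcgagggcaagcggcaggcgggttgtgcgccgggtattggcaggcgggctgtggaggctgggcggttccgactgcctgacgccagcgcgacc
Smad3 (chr9:63757995-63758244, minus strand): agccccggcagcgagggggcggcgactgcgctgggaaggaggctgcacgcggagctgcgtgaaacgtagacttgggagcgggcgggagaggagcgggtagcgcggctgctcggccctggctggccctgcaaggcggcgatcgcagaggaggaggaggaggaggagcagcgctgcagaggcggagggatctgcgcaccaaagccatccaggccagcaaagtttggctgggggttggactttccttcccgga
Tgfbr1 (chr4:47352972-47353221, plus strand): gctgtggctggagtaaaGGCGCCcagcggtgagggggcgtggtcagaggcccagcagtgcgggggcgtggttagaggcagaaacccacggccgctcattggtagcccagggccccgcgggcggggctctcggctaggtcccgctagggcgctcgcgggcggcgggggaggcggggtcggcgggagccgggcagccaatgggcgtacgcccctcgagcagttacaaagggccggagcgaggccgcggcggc
Tgfbr2 (chr9:116175364-116175613, minus strand): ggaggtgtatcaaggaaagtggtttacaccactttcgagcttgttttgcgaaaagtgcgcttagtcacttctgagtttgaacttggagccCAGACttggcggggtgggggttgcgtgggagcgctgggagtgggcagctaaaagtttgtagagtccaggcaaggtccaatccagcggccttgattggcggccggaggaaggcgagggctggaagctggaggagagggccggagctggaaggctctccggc
The windows of Smad1 and Smad3 held neither motif. That of Tgfbr1 held 1 GGCGCC and that of Tgfbr2 held 1 CAGAC. The Tgfbr1 window shown is the one at the start of the annotated gene. RefSeq lists another start 32994 bases downstream, whose window held 1 CAGAC, 0 GGCGCC and 3 CG dinucleotides. Of 32851 windows of this length in the table, 42.2% held CAGAC on either strand and 9.59% held GGCGCC, so these counts are descriptions and not binding sites. The windows shown for Smad1, Smad3 and Tgfbr1 were rich in CG dinucleotides, with 25, 22 and 29, and that of Tgfbr2 held 12, against a median of 6 over all windows.

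Reads assigned to genes numbered 28269310 to 33053024 per library. Values below are normalized reads, that is reads divided by a size factor of the library. Slamf7 and Cd48, inside the deletion, had at least 3923 and 1179 normalized reads in every wildtype library and at most 0.937 in any SFR KO library, as the labels state. Germinal centre B cell genes were high in all libraries, with Bcl6, the germinal centre transcription factor, at no less than 13496 normalized reads and the sphingosine receptor gene S1pr2 at no less than 17488. Summed over 8 T cell markers, none of them at 0, wildtype libraries held 353 to 752 and SFR KO libraries 735 to 922 normalized reads, and 7 of the 8 had a fitted difference above 0. Transcripts of the mitochondrial genome took 1.51% to 2.12% of reads in wildtype and 2.45% to 2.47% in the SFR KO libraries. Summed over 4 plasma cell markers, wildtype libraries held 28099 to 28945 and SFR KO libraries 31039.7 to 32128 normalized reads, most of them from Jchain, the antibody joining chain gene (DESeq2 adjusted p = 0.0104, limma adjusted p = 0.128). Of these markers, Jchain was higher in every SFR KO library than in any wildtype library, and 1 other was lower in every one. After each library's trend with transcript GC content was removed, the Jchain log2 difference fell from 0.18 to 0.03 (limma adjusted p = 0.874). Wildtype 1 had the most reads of 4 neutrophil markers (3194, against at most 1015 in any SFR KO library) and of 4 red cell markers (6692, against at most 3276). The part of any of these in the differences below was not tested. In bulk RNA, fewer cells of a type and less RNA per cell cannot be told apart.

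Levels of different genes were compared as normalized reads per kilobase of the longest annotated transcript, over all 6 libraries. The TGF-beta receptors led the family. Tgfbr2 stood at a mean of 999 per kb and Tgfbr1 at 692, levels above those of 83.2% and 76.6% of 13539 tested genes. The common partner Smad4 followed at 533. Smad2 and Smad7 stood at 268 and 251, Smad5 at 187, Bmpr1a at 148, Smad1 at 99.4 and Smad3 at 58.3. Bmpr2 was at the bottom at 1.56 per kb, lower than all but 0.192% of tested genes, whose median was 205. Ranges over the 6 libraries overlapped for 4 pairs of neighbours in this order, Smad2 with Smad7, Smad5 with Bmpr1a, Bmpr1a with Smad1 and Smad1 with Smad3. These ranges pool both genotypes and do not settle the order of the pairs. Compared within each library, Smad5 lay above Bmpr1a in all 6. Bmpr1a lay above Smad1 in every wildtype library, but Smad1 lay above Bmpr1a in SFR KO 1. In wildtype cells the minor receptor SMADs of the branches overlapped in level, with Smad1 at 74.3 ± 9.57 and Smad3 at 69.6 ± 9.18 per kb (SD, n = 3). In SFR KO cells they stood apart, with Smad1 at 125 ± 4.47 and Smad3 at 47.0 ± 10.5 per kb. The wildtype overlap depends on the length used. The exon union is 6.262 kb for Smad1 and 5.542 kb for Smad3, against longest transcripts of 3.775 and 5.09 kb. Per kilobase of exon union, Smad3 lay above Smad1 in wildtype without overlap, and Smad1 above Smad3 in SFR KO. These are descriptions, because Smad1 chose the family.

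**Figure D1:**
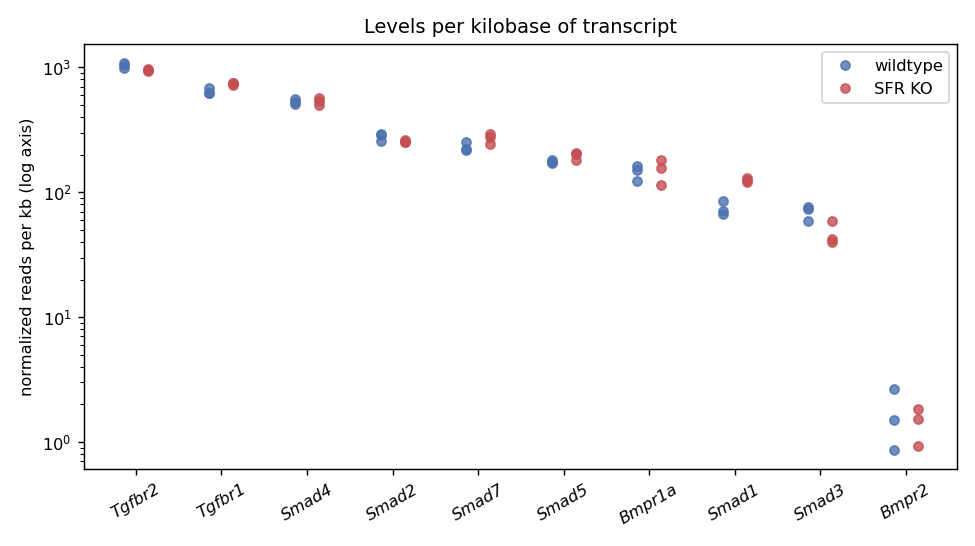
Normalized reads per kilobase of the longest transcript (log axis) for the 10 genes, ordered by the wildtype mean, with 1 point for each of 3 wildtype (blue) and 3 SFR KO (red) libraries. Tgfbr2 and Tgfbr1 lie at the top, and Bmpr2 lies far below the rest near 1.56 per kb. Smad1 and Smad3 overlap in wildtype but not in the SFR KO libraries, and the wildtype overlap depends on the length used.

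In the BMP branch, Smad1, whose higher level in SFR KO is why the family was chosen, had the largest fitted difference of the 10 members. Smad1 (ENSMUSG00000031681, chromosome 8, 79338395 to 79399518, minus strand, GRCm38) had 269, 251 and 321 normalized reads among wildtype libraries, listed here as elsewhere by replicate number, against 453, 469.7 and 487 in the SFR KO libraries. Every SFR KO library lay above every wildtype library. The group means were 281 ± 36.1 and 470.0 ± 16.9 (SD, n = 3 each), a ratio of 1.68, and the log2 difference was 0.75 ± 0.11 (SE). The difference was 0.76 ± 0.11 after each library's trend with transcript GC content was removed (GC correction).

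Smad5, the other receptor SMAD of the BMP branch with many reads, had 1202, 1136 and 1154 normalized reads in the wildtype and 1185, 1367 and 1332 in the SFR KO libraries. SFR KO 1 lay within the wildtype range and the other SFR KO libraries above it. Its log2 difference was 0.15 ± 0.07 with a 95% interval of -0.01 to 0.31 (limma adjusted p = 0.346). Adjusted p-values of limma's main fit and of edgeR cover all 13562 tested genes. Those after GC correction cover 13539 genes and those of DESeq2 10668. A gene was called when its adjusted p was under 0.05. The ratio of Smad1 to Smad5 reads was 0.224, 0.221 and 0.278 in wildtype and 0.382, 0.343 and 0.366 in the SFR KO libraries. Smad1 was thus the smaller pool in every library, and its share beside Smad5 was higher in each SFR KO library than in each wildtype library. As Smad1 chose the family, this ratio is a description and adds no support to the Smad1 difference. The third SMAD of this branch, Smad9, had 20 reads in the 3 wildtype libraries together and 6 in the SFR KO libraries, too few to test.

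Bmpr1a, a type I BMP receptor, varied most among libraries of 1 genotype relative to genes of its level. It had 895, 731 and 958 normalized reads in the wildtype and 681, 927 and 1083 in the SFR KO libraries, so that the SFR KO values spanned the wildtype range. Its coefficient of variation within groups was 18.8%, higher than for 96.2% of 1869 genes within a log2 of 0.5 of its level, whose median was 6.68%. The log2 difference was 0.04 ± 0.16, with an interval of -0.32 to 0.41 (limma adjusted p = 0.930), and it was -0.05 after GC correction. Bmpr2, the type II BMP receptor, had 34.4, 19.5 and 11.2 normalized reads in the wildtype and 23.6, 12 and 19.7 in the SFR KO libraries. At this depth its log2 difference of -0.14 ± 0.46 had an interval of -1.17 to 0.90, which leaves large changes in either direction possible (limma adjusted p = 0.919). The activin type II receptors, which can also bind BMPs, were as scarce. Acvr2a had 24.4 to 30.8 normalized reads in the wildtype and 9.37 to 18.6 in the SFR KO libraries (log2 difference -0.93 ± 0.36, limma adjusted p = 0.249), and Acvr2b had 60 reads in all 6 libraries together. These activin receptor genes were singled out after their values were seen. Bmpr1b, another type I BMP receptor, had 0 reads, and Acvr1 had 49.

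Smad4, the common partner, had 1903, 1771 and 1723 normalized reads in the wildtype and 1677, 1833 and 1916 in the SFR KO libraries. The groups covered nearly the same range. Its log2 difference was 0.01 ± 0.07 with an interval of -0.15 to 0.16 (limma adjusted p = 0.973), and its sign turned with 1 library left out.

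**Figure D2:**
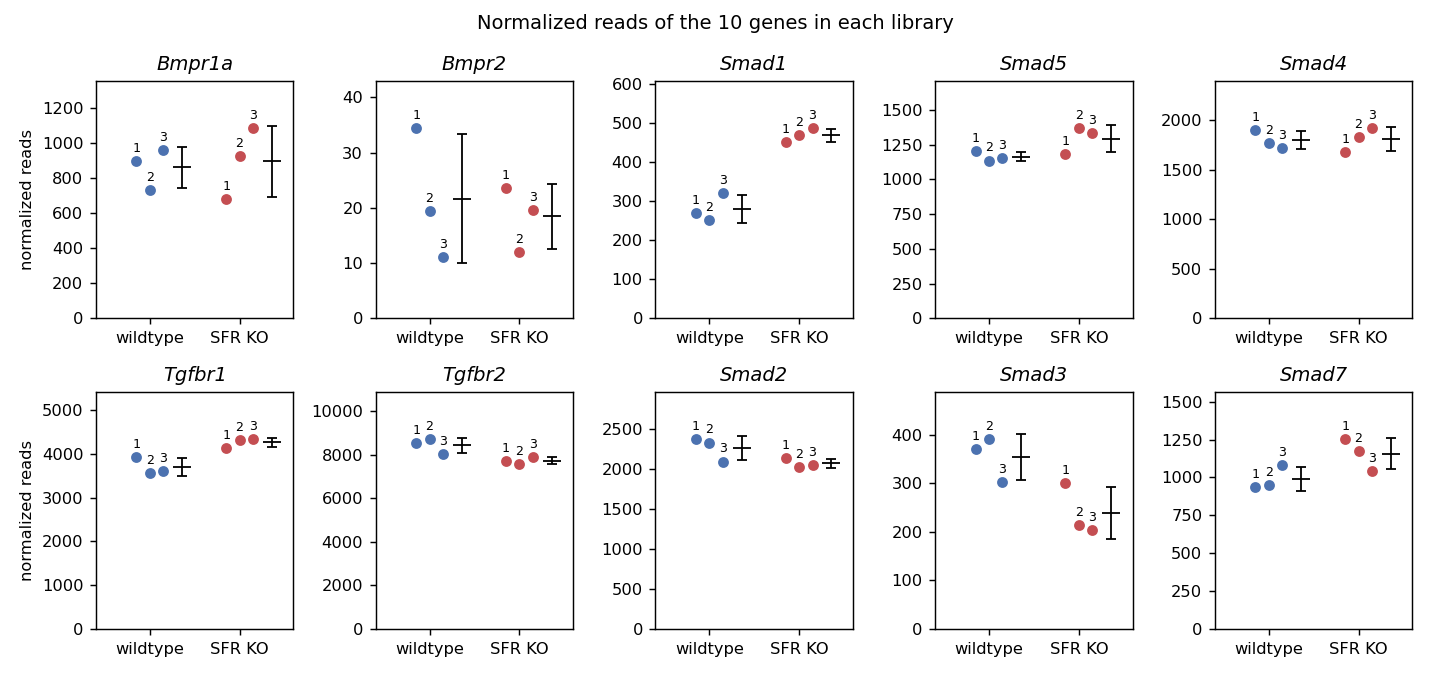
Normalized reads (vertical axes, each starting at 0) of the 10 genes in 3 wildtype (blue) and 3 SFR KO (red) libraries, numbered by replicate, with the mean and SD of each group as a black bar beside the points. The groups do not overlap for Smad1 and Tgfbr1, higher in SFR KO, and for Tgfbr2 and Smad3, lower in SFR KO.

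In the TGF-beta branch, the fitted differences of the receptor genes were small and of opposite sign, and neither passed limma's threshold. Tgfbr1, the type I receptor (chromosome 4, 47353222 to 47414931, plus strand), had 3938, 3568 and 3601 normalized reads in the wildtype and 4141, 4318 and 4338 in the SFR KO libraries. All SFR KO values were above all wildtype values. The log2 difference was 0.21 ± 0.05 with an interval of 0.08 to 0.33 (limma adjusted p = 0.128). It was called by DESeq2 (DESeq2 adjusted p = 0.0382) and not by edgeR (edgeR adjusted p = 0.126), and it shrank to 0.11 ± 0.05 after GC correction (limma adjusted p = 0.392). Its longest transcript is low in GC, at 41.0%.

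Tgfbr2, the type II receptor that binds TGF-beta (chromosome 9, 116084293 to 116175360, minus strand), had 8531, 8726 and 8050.5 normalized reads in the wildtype and 7712, 7574 and 7889 in the SFR KO libraries. All SFR KO values were below all wildtype values. The log2 difference was -0.13 ± 0.05 with an interval of -0.24 to -0.02 (limma adjusted p = 0.248), and -0.13 after GC correction. The number of Tgfbr1 reads for each Tgfbr2 read was 0.462, 0.409 and 0.447 in wildtype and 0.537, 0.570 and 0.550 in the SFR KO libraries. That this ratio did not overlap between genotypes follows from the values of the separate genes and adds no support to them.

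Smad2, the more abundant receptor SMAD of this branch, had 2368, 2326 and 2089 normalized reads in the wildtype and 2134, 2026 and 2042 in the SFR KO libraries. Only wildtype 3 lay within the SFR KO range, and the log2 difference was -0.13 ± 0.06 (interval -0.27 to 0.01, limma adjusted p = 0.366). Smad3 (chromosome 9, 63646767 to 63757994, minus strand) had 371, 391 and 302 normalized reads in the wildtype and 301, 213 and 203 in the SFR KO libraries. The groups did not overlap, but SFR KO 1 and wildtype 3 were nearly equal. The means were 354 ± 46.8 and 239 ± 53.5 (SD, n = 3 each), a ratio of 0.675, and the log2 difference was -0.58 ± 0.17 with an interval of -0.96 to -0.20 (limma adjusted p = 0.154). After GC correction it was -0.55 ± 0.17.

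Whether Smad3 passed the threshold depended on the method and on SFR KO 1. Without that library the log2 difference was -0.76 ± 0.14 and passed the threshold (limma adjusted p = 0.0239), as did 480 of all 13562 tested genes against 63 with all libraries. It also passed when limma weighted the libraries by their quality (-0.68 ± 0.14, adjusted p = 0.0284), where 630 genes did. With all libraries its adjusted p was under 0.05 in the authors' deposited table too, at 0.0416. It was not under 0.05 when DESeq2 or edgeR was run on the recovered reads (DESeq2 adjusted p = 0.0540, edgeR adjusted p = 0.177). Over all 16 alternatives the adjusted p of Smad3 ran from 0.0239 to 0.392. For Smad3, SFR KO 1 lay just below the wildtype range. The same library lay within the wildtype range for Fcer2a and Cr2, genes high in follicular B cells and picked here after the fact. Fcer2a, the CD23 gene, had 4275 to 6382 normalized reads in wildtype, 6271 in SFR KO 1 and 2546 and 2150.4 in SFR KO 2 and 3. Cr2, the complement receptor gene, had 7140.4 to 9265 in wildtype, 7905 in SFR KO 1 and 4234 and 4854 in SFR KO 2 and 3. No list of follicular B cell genes was counted, and the part of such cells in the Smad3 values was not tested.

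Smad7, the inhibitor, had 939, 948 and 1082 normalized reads in the wildtype and 1252, 1175 and 1045 in the SFR KO libraries. Only SFR KO 3 lay within the wildtype range. The log2 difference was 0.22 ± 0.09 with an interval of 0.03 to 0.42 (limma adjusted p = 0.255), and 0.28 after GC correction. The other inhibitory SMAD, Smad6, was nearly absent, with 0 reads in wildtype and 2 in the SFR KO libraries.

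**Figure D3:**
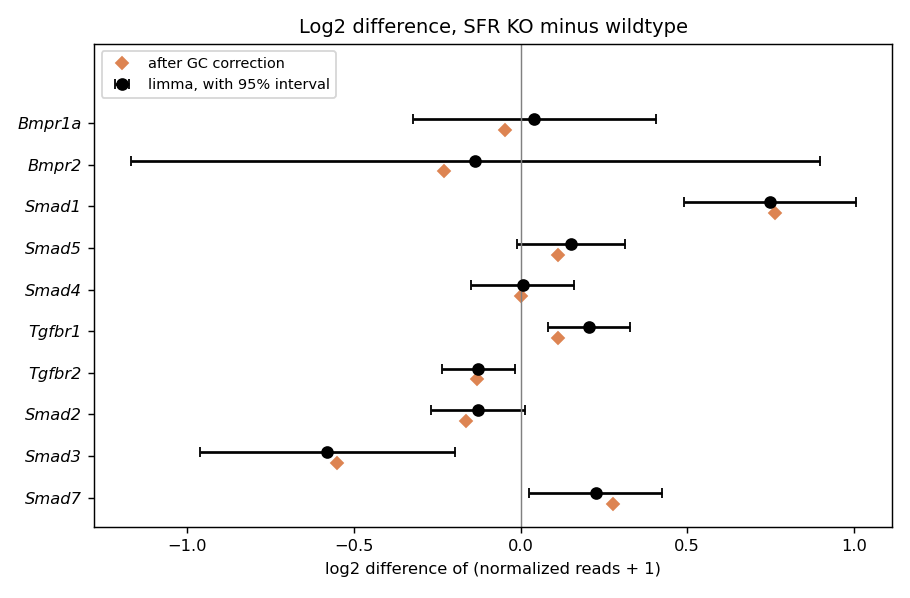
Log2 difference of SFR KO minus wildtype (horizontal axis, on normalized reads + 1) for each gene, with limma's estimate and 95% interval in black and the estimate after GC correction as an orange diamond. Intervals of Smad1, Tgfbr1 and Smad7 lie above 0, those of Smad3 and Tgfbr2 below 0, and Bmpr2 has the widest interval, from -1.17 to 0.90.

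All 10 members averaged 10 or more normalized reads and so entered the test. Of them 1, Smad1, passed limma's threshold as higher and 0 as lower. Over all 13562 tested genes 0.155% were called higher and 0.31% lower, and nothing is read from the count of members because Smad1 chose the family. At an unadjusted p under 0.05, 3 members were higher and 2 lower, where all tested genes gave 7.04% and 9.07%. Groups did not overlap for 4 members, Smad1 and Tgfbr1 higher and Smad3 and Tgfbr2 lower, against 21.7% of all tested genes. EdgeR called 0 members, against 0.221% of genes. DESeq2 called 2 higher, Smad1 and Tgfbr1, and 0 lower, against 1.72% and 2.8% of the genes to which it gave an adjusted p. In the authors' deposited table Smad1, Smad3 and Tgfbr1 had an adjusted p of 4.32e-05, 0.0416 and 0.0479, and 1.79% of its genes with an adjusted p were under 0.05 and higher, 3.01% under 0.05 and lower. The median log2 difference of the members was 0.02 (-0.02 after GC correction), with 6 of 10 above 0, against a median of -0.003 over all tested genes. The SMADs thus did not differ in 1 direction: Smad1, Smad5 and Smad7 had positive and Smad2 and Smad3 negative fitted values.

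The next question was whether other genes of the pathway differed. Lists for ligands, ligand activation, further receptors, SMAD inhibitors, SMAD partners and target genes held 144 symbols besides the members. Of these 142 were in the table, 24 had 0 reads and 88 were tested. Limma and edgeR called 0 of the 88, and DESeq2 called 8, with 2 higher and 6 lower. DESeq2 gave no adjusted p to some of the 88, Acvr2a among them, so its 8 calls come from fewer genes. Of all genes to which DESeq2 gave an adjusted p, 1.72% were called higher and 2.8% lower. At an unadjusted limma p under 0.05, 5 were higher and 14 lower, against 7.04% and 9.07% of all tested genes. Groups did not overlap for 4 that were higher and 14 that were lower, where 9.78% and 11.9% of all tested genes had such groups. The median log2 difference was -0.05 with 32 of 88 above 0, against 6691 of 13562 above 0 over all tested genes.

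Among ligands, 34 were listed, 13 had 0 reads and 10 were tested, of which limma called 0. Tgfb1, the main TGF-beta ligand of lymphocytes, dominated with 7361 to 7615 normalized reads in the wildtype and 6482 to 6792 in the SFR KO libraries. These ranges did not overlap, and the log2 difference was -0.17 ± 0.05 (limma adjusted p = 0.124, DESeq2 adjusted p = 0.0385). Tgfb3, another TGF-beta, went the other way from a low level, with 126 to 161 normalized reads in the wildtype and 198, 329.5 and 365 in SFR KO 1, 2 and 3 (log2 difference 0.99 ± 0.22, limma adjusted p = 0.0915, DESeq2 adjusted p = 0.000752). Lefty1, an inhibitor of nodal signals, stood at -0.27 ± 0.13 and Gdf11 at -0.24 ± 0.24 on the log2 scale, with overlapping groups. Of the BMP ligands, Bmp4 and Bmp5 had 0 reads, Bmp2 had 8 in all libraries together and Bmp7 had 47. Bmp6, chosen after its values were seen, had 2.79, 2.05 and 7.11 normalized reads in the wildtype and 21.7, 19.7 and 44.0 in the SFR KO libraries (log2 difference 2.61 ± 0.53, limma adjusted p = 0.0652).

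Latent TGF-beta must be cleaved and released before it binds its receptor. Of 22 listed genes for this step and for ligand storage, 11 were tested and limma called 0. Furin, the protease that processes the TGF-beta precursor, had 1259 to 1399 normalized reads in the wildtype and 860.2, 952 and 1067 in the SFR KO libraries, all lower. Its log2 difference was -0.49 ± 0.09 (limma adjusted p = 0.0522, DESeq2 adjusted p = 0.000289), and it was -0.44 after GC correction. Nrros and Lrrc32, which hold latent TGF-beta at the cell surface, had log2 differences of -0.32 ± 0.09 and -0.44 ± 0.12 with groups that did not overlap (limma adjusted p = 0.143 and 0.126). DESeq2 called Lrrc32 lower (DESeq2 adjusted p = 0.0440), and this gene was named after its values were seen. Itgav, an integrin chain that releases TGF-beta, and Twsg1, a BMP-binding protein, stood at 0.19 ± 0.12 and 0.27 ± 0.14 with overlapping groups.

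Of 17 further receptors and co-receptors, 8 were tested, limma called 0, and their median was 0.28. Acvr1b, the type I activin receptor that signals to Smad2 and Smad3, was the only one of them with a mean above 200 normalized reads. It had 1003 to 1114 in wildtype and 985 to 1047 in the SFR KO libraries (log2 difference -0.06 ± 0.07, limma adjusted p = 0.745). The BMP co-receptor gene Rgmb stood at 0.26 ± 0.17. Cd109 and Acvrl1, with means of 30.4 and 27.1 normalized reads, stood at 1.08 ± 0.54 and 0.33 ± 0.38.

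SMAD inhibitors gave 21 tested genes with a median of -0.03, and limma called 0. The most abundant stood near 0, with Ppp1ca, a phosphatase subunit, at 0.02 ± 0.05, Fkbp1a, which binds type I receptors, at 0.06 ± 0.05, Trim33 at 0.09 ± 0.06 and the phosphatase gene Ctdnep1 at -0.06 ± 0.06. SMAD partners gave 21 tested genes with a median of -0.06 and 0 limma calls. The adaptor gene Ywhae stood at 0.00 ± 0.05, the acetyltransferase gene Ep300 at -0.19 ± 0.08, the transcription factor gene Sp1 at 0.01 ± 0.05 and the importin gene Ipo7 at -0.02 ± 0.06. The partners that DESeq2 called lower, named after their values were seen, were Kat2a, an acetyltransferase (log2 difference -0.33 ± 0.07, DESeq2 adjusted p = 0.00388), and Ube2o, a ubiquitin ligase (-0.32 ± 0.08, DESeq2 adjusted p = 0.0279). Limma gave them adjusted p-values of 0.0613 and 0.123.

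Target genes did not differ in 1 direction. Of 29 listed genes 20 were tested, with a median of -0.05, 7 of 20 above 0 and 0 limma calls. Id3, an inhibitor of E proteins and a textbook BMP and SMAD1 target, had 3018, 3152 and 3203 normalized reads in the wildtype and 2693, 2128 and 1971 in the SFR KO libraries. All SFR KO values were lower, the reverse of the order for Smad1 (log2 difference -0.48 ± 0.10, limma adjusted p = 0.0744, DESeq2 adjusted p = 0.000573). Id2 stood at -0.19 ± 0.12 with overlapping groups, and Id1 had 25 reads in all 6 libraries. Klf10, a TGF-beta inducible factor, had 846 to 1036 normalized reads in the wildtype and 1166 to 1436 in the SFR KO libraries (log2 difference 0.50 ± 0.10, limma adjusted p = 0.0676, DESeq2 adjusted p = 0.000598). Id1, Id2 and Klf10 were named after their values were seen. Junb, an AP-1 factor, stood at -0.21 ± 0.09, the pro-death gene Bcl2l11 at -0.05 ± 0.11 and Skil, a feedback inhibitor, at -0.03 ± 0.07, all with overlapping groups.

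**Figure D4:**
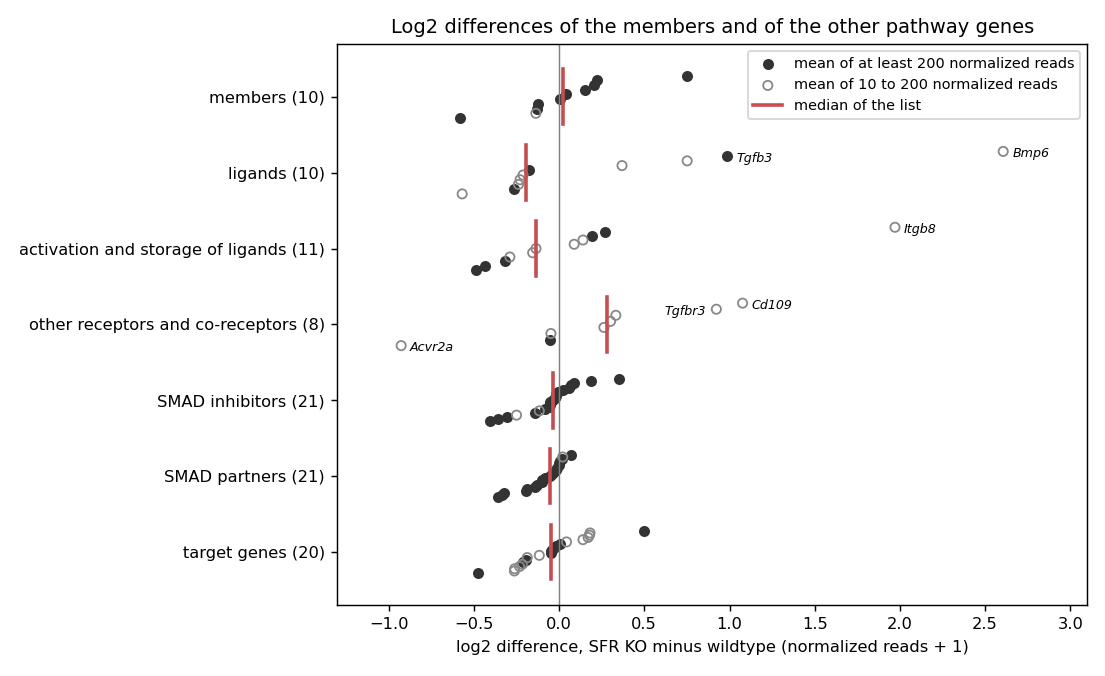
Log2 difference of SFR KO minus wildtype (horizontal axis) for each tested gene of the family and of 6 pathway lists, with the number of tested genes in brackets and the list median as a red line. Filled points have a mean of at least 200 normalized reads and open points 10 to 200, some genes are on more than 1 list, and the widest differences, such as Bmp6 at 2.61, belong to genes of few reads.

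The genes whose pattern was most like that of Smad1 were found by the root mean square distance between log2 values centred on each gene's mean over the 6 libraries, among 9865 named genes that averaged 50 or more normalized reads. They were Prss16, a serine protease gene, at a distance of 0.0676 log2 units, Serpinb9, a granzyme inhibitor, at 0.0793, Clec2i, a C-type lectin, at 0.0949, Zfp995, a zinc finger gene, at 0.112 and Phactr2, a phosphatase and actin regulator, at 0.113. In all of them wildtype 1, 2 and 3 lay below SFR KO 1, 2 and 3. That follows from their choice by likeness to Smad1 and adds no support to its difference. Clec2i, the most abundant, had 449, 419.5 and 466 normalized reads in the wildtype and 641, 704 and 789 in the SFR KO libraries. Within the family the nearest was Smad7 at 0.287, with 3.79% of those genes nearer to Smad1, followed by Tgfbr1 at 0.298 and Smad5 at 0.321. Smad3 was the farthest of the 8 other members with enough reads for this measure, at 0.729, with 98.6% of the genes nearer. Bmpr2 averaged too few reads to be placed. Because Smad1 chose the family, the distances of the members are descriptions.

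**Figure D5:**
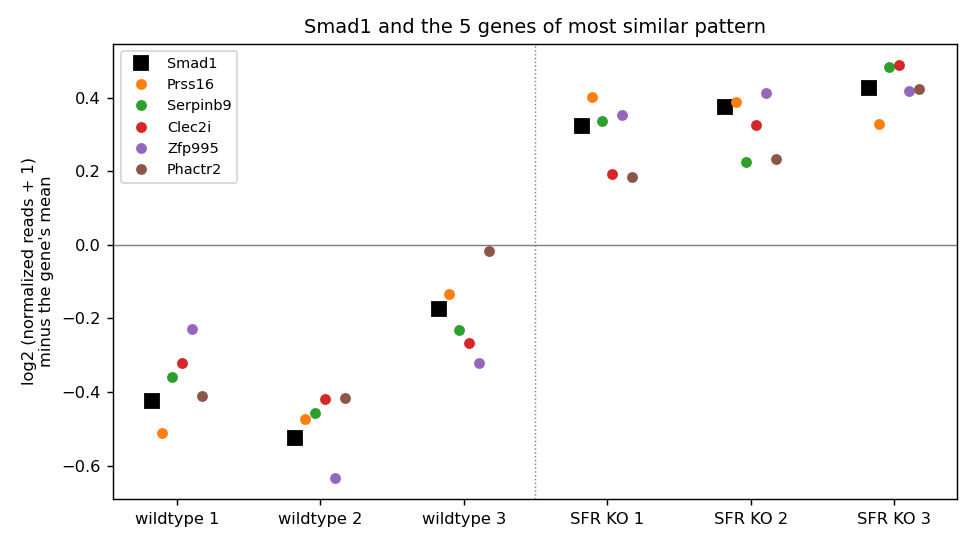
Log2 of normalized reads + 1, minus each gene's mean over the 6 libraries (vertical axis), for Smad1 (black squares) and the 5 genes of most similar pattern (coloured points) in each library. All 6 genes lie below 0 in the wildtype and above 0 in the SFR KO libraries, which for the 5 follows from their choice by likeness to Smad1. Wildtype 3 is the highest wildtype library for Smad1.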

How the data were processed

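RNA-seq of 3 wildtype and 3 SFR KO libraries was used, grouped by the genotype in the labels and numbered in accession order. Per the submitters' processing notes, the tools were STAR 2.5, featureCounts 1.5 and DESeq2 1.14.1, on GRCm38. The annotation release, the strand setting and how reads shared by similar genes were counted are not stated. The deposited table gives each library's read counts after division by a size factor (a signal). Per gene it also gives the authors' log2 fold change with standard error, their test statistic (a score) and their p-values, raw and adjusted. All values were whole multiples of 1 read (100% within a tolerance of 1e-06), so reads were recovered by division.

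The 13562 genes averaging 10 or more normalized reads were fitted with limma 3.58.1 in R 4.3.3, with a trend, on the log2 of normalized counts plus a pseudocount of 1. Tests were two-sided, and genes were called at a Benjamini-Hochberg adjusted p under 0.05. This scale understates the change of low genes. Alternatives were DESeq2 1.42.0 and the quasi-likelihood test of edgeR 4.0.16 on recovered reads, other pseudocounts, filters and scalings, sample weights, removal of GC trends (natural spline, 4 degrees of freedom) and leaving out each library. Positions, transcript lengths and GC content came from GENCODE M21 (GRCm38), in which 99.5% of genes were found. The steps were tested on simulated counts.

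The members and lists were chosen with earlier results of these data known. Named genes are the members, up to 4 of the most abundant genes of each list, and the 5 genes nearest to Smad1; other genes, among them those with too few reads to test, were named after their values were seen. 1 marker gene is not reported here.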

Additional observations from a re-analysis of the deposited data

How the results depend on the processing

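The log2 difference of Smad1 kept its direction in all 16 alternatives, from 0.67 to 0.85, and was under the threshold in 10 of them. Because Smad1 chose the family and the alternatives reuse the same libraries, these values describe the processing and add no support to the difference. It missed the threshold with edgeR (0.75, adjusted p = 0.0506) and in 5 of the 6 fits that left out a library, which also have fewer samples. Left out in turn, wildtype 1, 2 and 3 gave a limma adjusted p = 0.123, 0.115 and 0.0511, and SFR KO 2 and 3 gave 0.186 and 0.111. Without SFR KO 1 it was 0.016. With 1 library left out the value ran from 0.67 (without wildtype 2) to 0.85 (without wildtype 3). The number of members called, 1 in limma, was 0 with edgeR, 2 with DESeq2, 3 with sample weights, and 0 to 2 with 1 library left out, the 2 being Smad1 and Smad3 without SFR KO 1. Calls over all genes moved as well, from 63 of 13562 in limma to 30 with edgeR, 483 of 10668 with DESeq2, 630 with sample weights, 129 of 24646 with no filter beyond 1 read, 98 of 10755 with a minimum mean of 50, 480 without SFR KO 1 and 11 to 26 with each of the other libraries left out. For other pathway genes, 0 in limma, it was 3 with no filter beyond 1 read, 1 with a minimum mean of 50, 8 with DESeq2, 11 with sample weights, and 0 to 8 with 1 library left out, the 8 without SFR KO 1. The median log2 difference of members was 0.082 with sample weights and ran from -0.071 (without SFR KO 3) to 0.12 (without wildtype 1). The fitted sign turned for genes near 0. Bmpr1a was at -0.046 after GC correction and between -0.11 and 0.23 with 1 library left out, Smad4 ran from -0.036 to 0.060 and Bmpr2 from -0.52 to 0.25. The causes of these shifts were not tested. Smad2, Smad3, Smad5, Smad7, Tgfbr1 and Tgfbr2 kept their direction in all 16 alternatives. The difference between groups in the log2 ratio of Smad1 to Smad5, a description only, ran from 0.54 to 0.71 with 1 library left out. With exon-union lengths, 3 neighbouring pairs overlapped in level. No paired analysis was possible because the labels carry no replicate numbers. DESeq2 gave Bmpr2 a log2 difference of -0.23 but no adjusted p, and a minimum mean of 50 left this gene out.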
